A study of Mus musculus with 6 samples.

Results

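Zinc finger genes were followed through 6 tables of alternative splicing in medullary thymic epithelial cells (mTECs), the cells of the thymus that display tissue antigens to developing T cells. Members were the genes listed in all 6 tables whose symbol begins with 1 of 13 prefixes: Zfp, Zfhx, Zfx, Zbtb, Zscan, Zkscan, Zik, Zc3h, Zcchc, Zmym, Zmiz, Zmynd or Zdhhc. The rule found 87 genes of the 2898 listed in any library. They carried 147 of the 4658 splicing events that could be matched across all libraries. No gene with the prefix Zfhx or Zik was found.

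The mTECs were primary mouse cells (CD45- EpCAM+ Ly51- I-A/E+) placed on a fibrin gel that held human dermal fibroblasts. Lentiviruses delivered a short hairpin RNA and GFP to them. The Ctr group of 2 libraries received a hairpin against LacZ, a bacterial gene that serves as the control target. The Raver2 knockdown and Setd2 knockdown groups also had 2 libraries each, made with hairpins sh1 and sh2, so the libraries of a knockdown differ in hairpin as well as in sample. All cells were collected 5 days after infection as viable DAPI- I-A/E+ GFP+ cells, which means that every group, Ctr included, carries a virus, a hairpin and GFP. The labels say nothing of the strain, age or sex of the animals, nor whether each library had its own animal or culture. A p-value below is thus set against library-to-library spread pooled over the groups. In Ctr that spread may be technical only, and in the knockdowns it also holds the difference between hairpins.

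Each event has 1 value per library, its inclusion frequency: the fraction, from 0 to 1, with which the alternative segment was kept. The tables name the gene and give the fraction, with no coordinates, read counts or event class, so the exon behind an event is unknown and so is the depth behind a fraction. An event is called here by its gene and its place in the gene's rows (Zfp207 event 1). Libraries listed 4777 to 4949 events of 2765 to 2857 genes. Neither Raver2 nor Setd2 had a listed event, and no expression level was used, so the knockdown itself was not checked. Of the marker lists for the cell type, 3 of 12 mTEC genes, 1 of 10 fibroblast genes and 3 of 10 leukocyte genes had a listed event, which says that a spliced transcript was read and nothing about its amount. Row order was checked on the 28 member genes that have more than 1 event (88 events): pairs of libraries correlated at 0.618 to 0.828 in matching places and at -0.177 to 0.0727 when the places were moved by 1. Rows of a gene that are complements of each other may lower the moved values by construction. The check pools the genes, so it does not show the order within any single gene.

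Raver2 is an RNA-binding protein of the raver family that partners with the splicing repressor PTB. Setd2 is the methyltransferase that trimethylates lysine 36 of histone H3 over transcribed genes, a mark linked to exon choice. The members are held together by a zinc-bound fold and differ in what the fold binds. Most Zfp, Zbtb, Zscan and Zkscan proteins carry arrays of C2H2 fingers that read DNA, and many add a KRAB domain, which recruits the corepressor Trim28, or a BTB or SCAN domain, through which the proteins pair with one another. Zc3h and Zcchc proteins mostly bind RNA, Zmym, Zmiz and Zmynd proteins act in chromatin complexes, and Zdhhc proteins are membrane enzymes that attach palmitate to other proteins. KRAB zinc finger proteins are best known as silencers of retroelements.

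The exon layout of these genes bears on what an inclusion value can stand for. The GENCODE M21 annotation of mm10 placed 86 of the 87 genes; Zc3h11a has more than 1 locus of that name. Chromosome 7 held 15 of them, chromosome 11 held 8, and chromosomes 2, 13 and X held 7 each. In the longest annotated coding sequence, the largest coding exon made up a median of 79.7% of the coding bases, against 22.1% in the 2443 other listed genes with a coding sequence. A C2H2 pattern (cysteines 2 to 4 residues apart, 12 residues, then histidines 3 to 5 residues apart) was found in 71 of the 86 genes and in 39 of the 2443 others. The members' median was 7 patterns and the highest count was 25, in Zfp62. An internal coding exon that some annotated transcript skips was present in 29 of 86 members (33.7%), against 60.4% of the other genes. Those 29 genes had 51 such exons, from 12 to 396 bases long, and 26 of the 51 had a length that is a multiple of 3 and so keeps the reading frame. Exons were counted by exact start and end, so overlapping forms that share 1 end count separately, as in Zfp37, Zmym3 and Zfp426.

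The annotated exons are printed for 4 genes whose events are described below, because they show the kind of segment that an inclusion value in these families can count. Each line gives the exon in capitals between 15 coding bases of the flanking exons in lower case, 5′ to 3′ on the transcript, from the GENCODE M21 transcripts. The tables do not say which exon an event belongs to. Zfp207 encodes a spindle assembly protein that carries Bub3 to kinetochores, and its skipped coding exons lie at chr11:80389774-80389821 (48 bases) and chr11:80393084-80393176 (93 bases) on the plus strand. Zfp384 encodes a C2H2 factor, and its skipped coding exons lie at chr6:125024505-125024552 (48 bases), chr6:125025848-125025940 (93 bases) and chr6:125031671-125031853 (183 bases) on the plus strand. Zmynd11 encodes a chromatin reader of trimethylated lysine 36 on histone H3.3, the mark that Setd2 writes, and the shortest of its skipped coding exons lies at chr13:9712983-9713027 (45 bases) on the minus strand. Zmynd8 encodes a related chromatin reader, and its skipped coding exons lie at chr2:165852868-165852879 (12 bases) and chr2:165787164-165787247 (84 bases) on the minus strand. All of the exons located here keep the reading frame. Zmynd11 also has a skipped coding exon, not printed, of 160 bases at chr13:9720773-9720932, whose length is not a multiple of 3.
Zfp207, 48-base exon: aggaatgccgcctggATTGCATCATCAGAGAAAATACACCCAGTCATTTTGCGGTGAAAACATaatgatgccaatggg
Zfp207, 93-base exon: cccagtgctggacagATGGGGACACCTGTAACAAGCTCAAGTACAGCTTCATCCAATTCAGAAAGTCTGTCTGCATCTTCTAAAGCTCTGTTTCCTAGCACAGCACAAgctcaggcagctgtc
Zfp384, 48-base exon: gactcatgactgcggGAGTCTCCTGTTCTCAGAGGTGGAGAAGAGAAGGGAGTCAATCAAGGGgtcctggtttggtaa
Zfp384, 93-base exon: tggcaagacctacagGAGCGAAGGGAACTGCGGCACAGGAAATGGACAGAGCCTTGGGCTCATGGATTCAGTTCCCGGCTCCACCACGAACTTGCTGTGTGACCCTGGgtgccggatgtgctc
Zfp384, 183-base exon: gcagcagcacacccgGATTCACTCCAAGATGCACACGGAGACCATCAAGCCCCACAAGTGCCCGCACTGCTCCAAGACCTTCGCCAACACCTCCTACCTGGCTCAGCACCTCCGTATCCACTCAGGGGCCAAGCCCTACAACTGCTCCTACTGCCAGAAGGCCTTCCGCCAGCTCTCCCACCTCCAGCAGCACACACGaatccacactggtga
Zmynd11, 45-base exon: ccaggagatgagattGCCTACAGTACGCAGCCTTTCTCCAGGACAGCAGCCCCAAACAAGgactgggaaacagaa
Zmynd8, 12-base exon: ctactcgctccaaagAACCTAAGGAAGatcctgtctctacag
Zmynd8, 84-base exon: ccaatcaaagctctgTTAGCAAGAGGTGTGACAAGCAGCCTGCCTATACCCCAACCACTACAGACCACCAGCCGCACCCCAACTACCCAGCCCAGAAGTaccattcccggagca

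A second set shows what the KRAB genes have in common. The A box of the KRAB domain, the part that binds Trim28, is typically coded by 1 exon of 127 bases. The letters GAGAACTAC, which fall in that box, were searched on both strands in every complete 127-base coding exon of the listed genes, the length most common among member exons that hold them. Member exons of 85, 124, 169 and 232 bases held them in 1 case each. They were found in 7 of 27 such exons of the members (25.9%), in 1 of 191 exons of other genes (0.524%) and in 8 of 218 of all listed genes (3.67%). The members were Zfp1, Zfp386, Zfp426, Zfp68, Zfp78, Zfp82 and Zfp879. A match describes the letters only, and an exon without them may code for the same box in other letters. Shown are the exons of Zfp386 at chr12:116054722-116054848 (plus strand) and Zfp78 at chr7:6373127-6373253 (plus strand), whose events are described in detail below. The exons of Zfp879 at chr11:50838410-50838536 and Zfp82 at chr7:30066241-30066367, both on the minus strand, stand beside them for comparison. These exons are shown for their sequence, and no event is tied to them. Capitals mark the searched letters.
Zfp386: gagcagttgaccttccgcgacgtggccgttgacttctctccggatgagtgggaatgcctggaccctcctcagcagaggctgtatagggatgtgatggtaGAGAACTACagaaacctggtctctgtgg
Zfp78: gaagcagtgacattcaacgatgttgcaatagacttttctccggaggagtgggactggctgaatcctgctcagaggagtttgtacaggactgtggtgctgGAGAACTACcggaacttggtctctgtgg
Zfp879: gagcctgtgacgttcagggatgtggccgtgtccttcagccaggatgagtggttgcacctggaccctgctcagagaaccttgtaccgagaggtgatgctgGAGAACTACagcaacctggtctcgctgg
Zfp82: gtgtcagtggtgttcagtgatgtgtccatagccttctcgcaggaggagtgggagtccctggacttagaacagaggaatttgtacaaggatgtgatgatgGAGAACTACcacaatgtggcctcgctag
All 4 carry the letters at the same place near the 3′ end of the exon.

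Most member events had a middle mean inclusion over the Ctr libraries. Such a mean can also come from 2 libraries far apart, as in Zfp473 event 3, below 0.001 and above 0.999. The shares by mean thus mix level with disagreement between the libraries. The mean over the Ctr libraries lay between 0.1 and 0.9 for 97 of the 147 events (66.0%), against 51.7% of events in other genes. It lay below 0.1 for 28 events (19.0%, against 27.7%) and above 0.9 for 22 (15%, against 20.5%). The median Ctr mean of the members was 0.505, against 0.440 in other genes. The median over member events by library was 0.50 to 0.542, and the libraries of the 3 groups overlapped in it: 0.542 and 0.503 in Ctr, 0.513 and 0.542 in the Raver2 knockdown, 0.50 and 0.510 in the Setd2 knockdown. Only 1 event, of Zfp647, was below 0.01 in all 6 libraries, and 6 were above 0.99 in all 6. Of the 87 genes, 59 had a single event, while Zscan22 had 9 and Zfp672 and Zfp740 had 6 each.

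**Figure D1:**
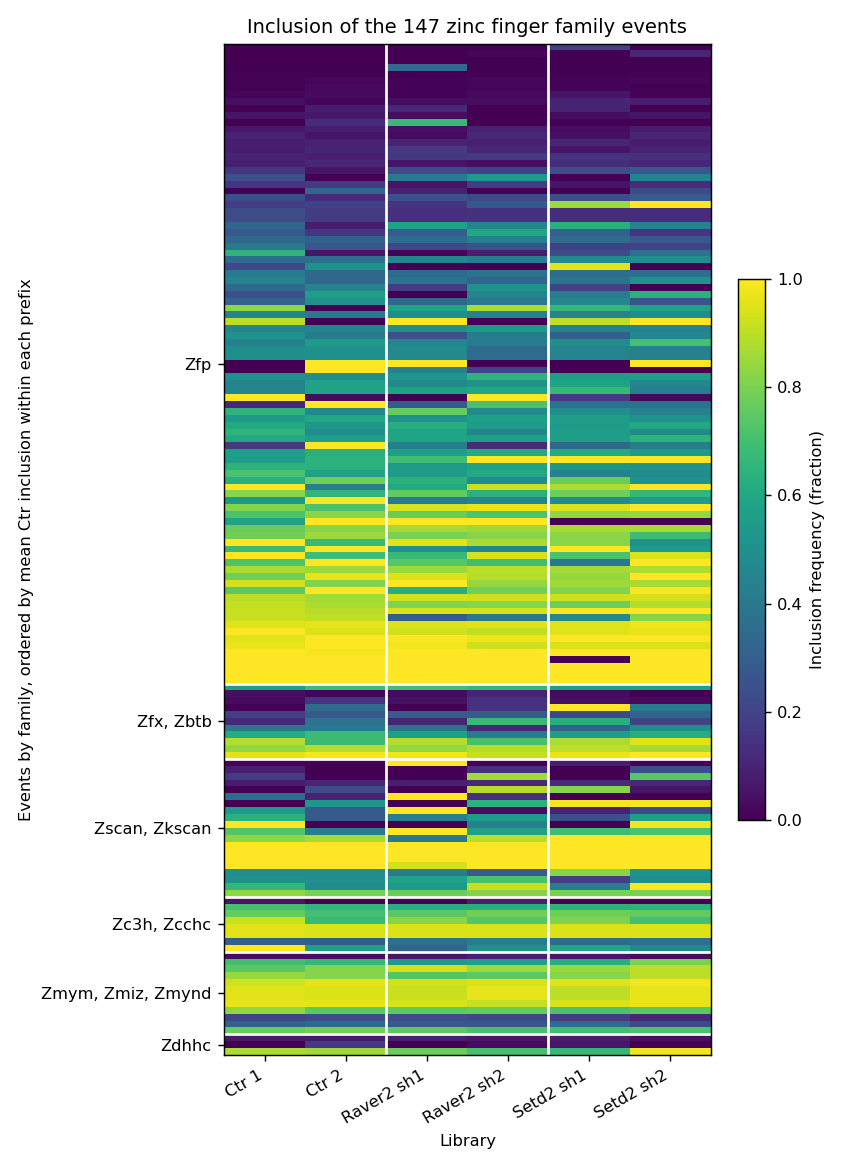
Inclusion frequency of all 147 zinc finger family events (rows, by prefix and then by Ctr mean) in the 6 libraries (columns), on a colour scale from 0 to 1. Low, middle and high events keep their colour across most columns, and 13 rows span more than 0.9 between their lowest and highest library.

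Some rows of a gene repeat each other, so they are not separate findings. Identical values stood in 3 pairs of events (Zfp809 events 2 and 3, Zfp865 events 1 and 3, Zmym3 events 1 and 4). A further 2 pairs were equal within 0.005, and 9 pairs in 7 genes added up to 1 within the same tolerance. Zfp384, Zfp37 and Zkscan3, for example, each had a pair of events in which one fraction was the complement of the other, so that 1 choice between 2 forms fills both rows. Positions on the genome add a limit for a few genes. Zfp934 and Zfp935 overlap on the same strand, Zfp692 and Zfp672 lie 486 bases apart on opposite strands, and Zfp14 and Zfp82 lie 3108 bases apart. How reads in shared stretches, or in near-identical fingers of paralogs, were assigned is unknown, so the values of these genes are uncertain to that extent.

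The spread between libraries of one group was wide in these genes. The 2 Ctr libraries differed by more than 0.1 in 58 of 147 member events (39.5%), against 27.3% of events in other genes. For the Raver2 knockdown it was 51 events (34.7%, against 22.5%), and for the Setd2 knockdown 50 (34.0%, against 25.2%). Events at middle levels have more room to differ, and a larger share of the member events had a middle Ctr mean. Among events with a Ctr mean from 0.1 to 0.9 the Ctr libraries differed by more than 0.1 in 55.7% of 97 member events and 46.4% of 2334 others. The same shares were 45.4% and 29.3% in the Raver2 knockdown and 45.4% and 33.7% in the Setd2 knockdown. For Ctr the filter uses the same 2 values as the gap, and a wide gap itself tends to give a middle mean. The Ctr shares are thus selected in part on the gap and are not matched for level. No test was made of these shares, since events of 1 library are not replicates.

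**Figure D2:**
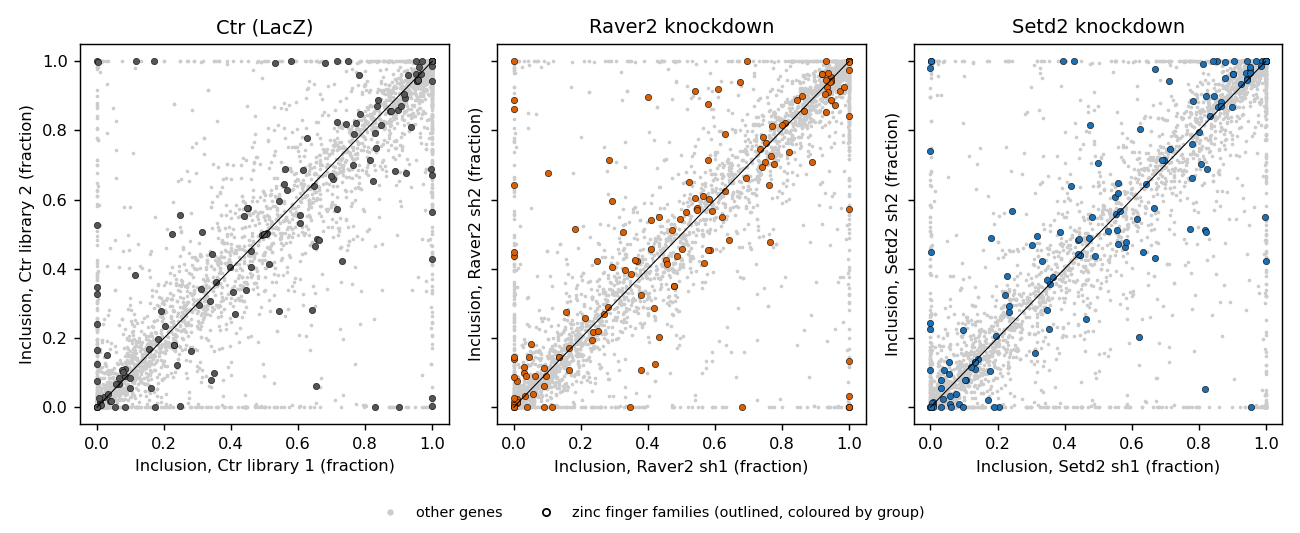
Inclusion of each event in one library of a group (x axis) against the other library of that group (y axis), as fractions, for Ctr, the Raver2 knockdown and the Setd2 knockdown. Outlined coloured points are zinc finger family events, grey points are events of other genes and the line marks equal values; 58, 51 and 50 member events lie more than 0.1 from equality in the 3 panels.

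The widest examples went from near 0 to near 1 between libraries that share a label. Zfp473, a C2H2 gene, had an event 3 below 0.001 and above 0.999 in the Ctr libraries, above 0.999 and below 0.001 in the Raver2 knockdown, and below 0.001 and above 0.999 in the Setd2 knockdown. Its groups overlapped completely. Event 2 of the gene was above 0.999 and at 0.0278 in Ctr, at 0.00119 and above 0.999 in the Raver2 knockdown, and at 0.171 and 0.0202 in the Setd2 knockdown. It was thus high where event 3 was low and the reverse, except with Setd2 sh1, where both were low. Whether the rows changed places, or 1 choice fills both rows, was not tested. The event of Zfp879 was 0.901 and below 0.001 in Ctr, above 0.999 and below 0.001 in the Raver2 knockdown, and 0.905 and above 0.999 in the Setd2 knockdown. Zscan22, a SCAN domain gene, held 6 events in which the 2 libraries of some group differed by more than 0.5. In Zscan22 event 5, for instance, the Ctr libraries stood at 0.999 and 0.0034. Counts of this size of gap were small in every group: 5 member events differed by more than 0.9 in Ctr, 5 in the Raver2 knockdown and 4 in the Setd2 knockdown, or 3.40%, 3.40% and 2.72%, against 3.59%, 3.48% and 3.81% in other genes.

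The wide gaps were not spread evenly over the families. Events of genes with 5 or more C2H2 patterns had a mean gap over 0.1 between libraries of a group in 46 of 91 cases (50.5%). In genes with fewer patterns it was 11 of 55 (20%), and in genes outside the families 31.7%. Split by the annotation of skipped coding exons, the count was 11 of 51 events (21.6%) in genes with such an exon and 46 of 95 (48.4%) in genes without. Without Zscan22 and its 9 events, the higher shares were 37 of 82 (45.1%) and 37 of 86 (43.0%). Both splits were chosen after the values were seen, and many genes fall on the same side of both, so they are given as descriptions with no test. Depth, which is unknown here, was not compared between the classes.

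**Figure D3:**
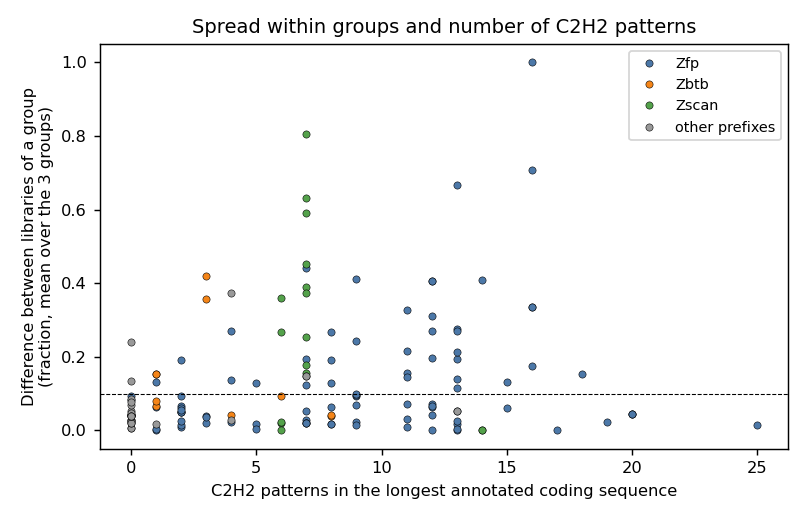
Number of C2H2 patterns in the longest annotated coding sequence (x axis) against the difference between the libraries of a group, as a fraction averaged over the 3 groups (y axis), for 146 member events coloured by prefix. Above the dashed line at 0.1 lie 46 of 91 events of genes with 5 or more patterns and 11 of 55 with fewer.

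No zinc finger event passed the test in any comparison. The fractions were fitted with limma, a linear model that pools the variance over events, all 6 libraries together with 1 mean for each group, two-sided, and p-values were adjusted by Benjamini-Hochberg across the 4658 events with a threshold of 0.05. In Raver2 knockdown against Ctr, 113 of all events were called (2.43%) and 0 of the 147 member events. In Setd2 knockdown against Ctr, 104 of all events (2.23%) and 0 member events were called, and in Raver2 against Setd2 knockdown 34 (0.73%) and 0. Events with no library near 0 or 1 made up 55.1% of member events and 42.5% of events in other genes. Few such events were called when fitted alone, as given at the end. The shares of calls compare sets with unlike mixes of levels and unlike spread within groups. Whether either bears on the shares was not tested. The smallest adjusted p among the members was 0.0554, 0.0534 and 0.130 in the 3 comparisons. At an unadjusted p under 0.05 there were 10 member events in Raver2 knockdown against Ctr (6.8%, with 12% of all events), 14 in Setd2 knockdown against Ctr (9.52%, with 11.6%) and 7 between the knockdowns (4.76%, with 6.12%). The median 95% interval of a member's difference reached 0.166 to either side, and 0.132 over all events, though single members had much tighter ones.

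Groups whose libraries do not overlap were common everywhere. This held for 51 member events in Raver2 knockdown against Ctr (34.7%, with 43.9% of all events), of which 25 were higher (20.5% of all events) and 26 lower (23.3%) in the knockdown. In Setd2 knockdown against Ctr it held for 48 (32.7%, with 42.3%), 25 higher (21% of all events) and 23 lower (21.3%). Between the knockdowns it held for 47 (32%, with 33.6%), 20 higher (15.3% of all events) and 27 lower (18.4%) in the Raver2 knockdown. With 2 libraries per group, such a separation often arises from the order of the values alone. Groups called apart below are therefore a description and no evidence of a change. The median absolute difference of the members was 0.0508, 0.0539 and 0.0361 in the 3 comparisons, against 0.0423, 0.0412 and 0.0261 over all events. The first and the second comparison share both Ctr libraries, so their values are given side by side below and are not counted as support for each other.

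**Figure D4:**
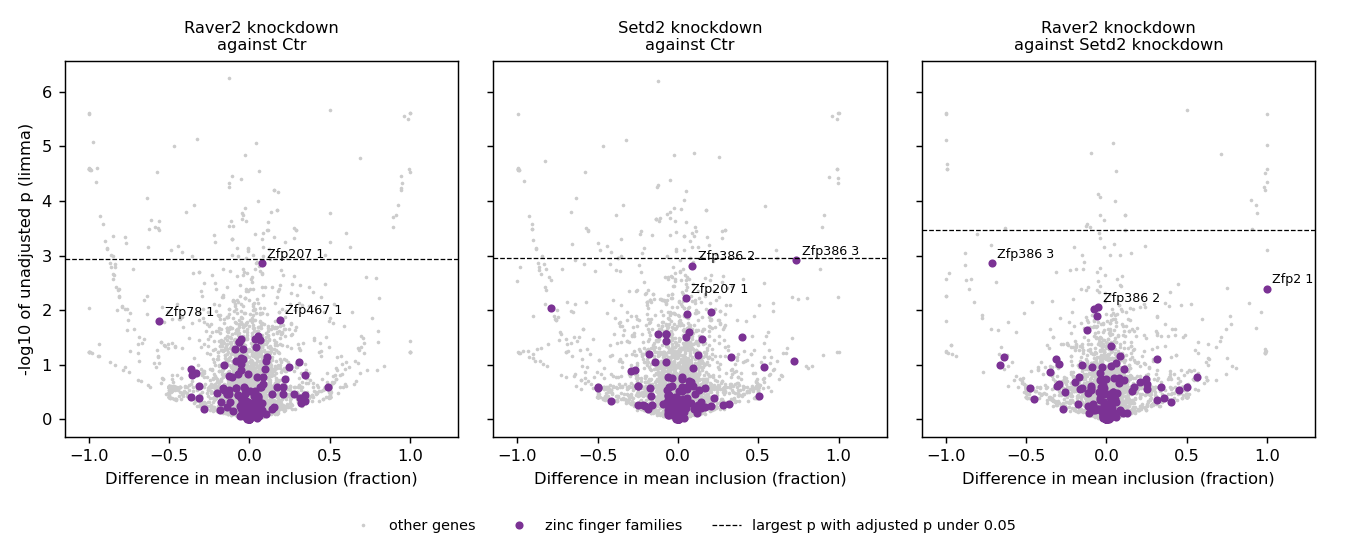
Difference in mean inclusion as a fraction (x axis) against the unadjusted limma p as -log10 (y axis) for each comparison, with zinc finger family events in purple, other genes in grey and a dashed line at the largest p whose adjusted p is under 0.05. All 147 purple points lie below the line in each panel, with Zfp386 event 3 and Zfp207 event 1 nearest to it.

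Among the Zfp genes, Zfp207 came nearest to the threshold in the Raver2 knockdown. Its event 1 was included at 0.0986 and 0.0833 in Ctr, at 0.163 and 0.170 in the Raver2 knockdown and at 0.142 and 0.139 in the Setd2 knockdown. Both knockdowns lay above both Ctr libraries, the Raver2 knockdown highest, and no groups overlapped. The mean was 0.0910 ± 0.0109 (SD, n = 2) in Ctr and 0.167 ± 0.00456 (SD, n = 2) in the Raver2 knockdown, a difference of 0.0757 ± 0.00879 (SE; 95% interval 0.0505 to 0.101, limma adjusted p = 0.0554). It passed under 2 of 14 alternative settings, without a variance trend and without Ctr replicate 1, with adjusted p from 0.0339 to 0.266 over all of them. For the Setd2 knockdown the difference was 0.0496 (limma adjusted p = 0.148), and between the knockdowns 0.0261 (limma adjusted p = 0.795). The other events of the gene stood at similar levels in all libraries, event 2 at 0.945 to 0.974 and event 3 at 0.856 to 0.901.

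Zfp386, a KRAB gene, held the member event nearest to the threshold in the Setd2 knockdown. Event 3 was at 0.182 and 0.196 in Ctr, 0.155 and 0.275 in the Raver2 knockdown, and 0.854 and above 0.999 in the Setd2 knockdown. Only the Setd2 libraries stood apart, and the Raver2 libraries lay on both sides of Ctr. The mean was 0.189 ± 0.00939 (SD, n = 2) in Ctr and 0.927 ± 0.103 (SD, n = 2) in the Setd2 knockdown, 0.738 ± 0.0830 higher (SE; 95% interval 0.50 to 0.975, limma adjusted p = 0.0534). That call was made under 2 of 13 alternatives, without a variance trend and with a robust variance model, and the adjusted p ran from 0.0433 to 0.256. Against the Setd2 knockdown, the Raver2 mean was 0.712 lower (limma adjusted p = 0.130).

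Event 2 of the same gene was at 0.918 and 0.893 in Ctr, 0.943 and 0.939 in the Raver2 knockdown, and 0.99 and above 0.999 in the Setd2 knockdown. All 3 groups were apart, in that order. The Setd2 mean exceeded Ctr by 0.0893 ± 0.0107 (SE; limma adjusted p = 0.0618), and the Raver2 mean exceeded Ctr by 0.0353 (limma adjusted p = 0.360). The first of these was called without Ctr replicate 1 and without Ctr replicate 2. The annotation gives Zfp386 no skipped exon, so neither event could be set beside an annotated exon.

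Zfp78, the other KRAB gene whose exon is printed above, differed most in size in the Raver2 knockdown. Its single event was at 0.916 and 0.905 in Ctr, 0.292 and 0.405 in the Raver2 knockdown, and 0.476 and 0.817 in the Setd2 knockdown. Every knockdown library was below both Ctr libraries, and the Setd2 hairpins were far from each other. The Raver2 mean was 0.562 ± 0.134 below Ctr (SE; difference -0.562, 95% interval -0.945 to -0.179, limma adjusted p = 0.252). No alternative setting called it. The annotation lists 1 skipped coding exon for Zfp78, of 96 bases at chr7:6375519-6375614 (plus strand). It is not the KRAB exon printed above, and which exon the event counts is unknown.

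Zfp2, a C2H2 gene whose coding sequence sits in 1 exon, had the largest difference between the knockdowns. Its event was at 0.578 and above 0.999 in Ctr, above 0.999 in both Raver2 libraries and below 0.001 in both Setd2 libraries. The Setd2 libraries stood apart from the other 4, while the Ctr libraries were themselves 0.422 apart. The Setd2 mean differed from Ctr by -0.789 ± 0.158 (SE; 95% interval -1.24 to -0.338, limma adjusted p = 0.176). The Raver2 and Setd2 means differed by 1.0 ± 0.158 (SE; limma adjusted p = 0.255). The second of these was called when only the 4 libraries compared were fitted and when either Ctr library was left out, with adjusted p from 0.0351 to 0.624 over 15 alternatives. The first was called when either Ctr library was left out, with adjusted p from 0.00469 to 0.355.

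**Figure D5:**
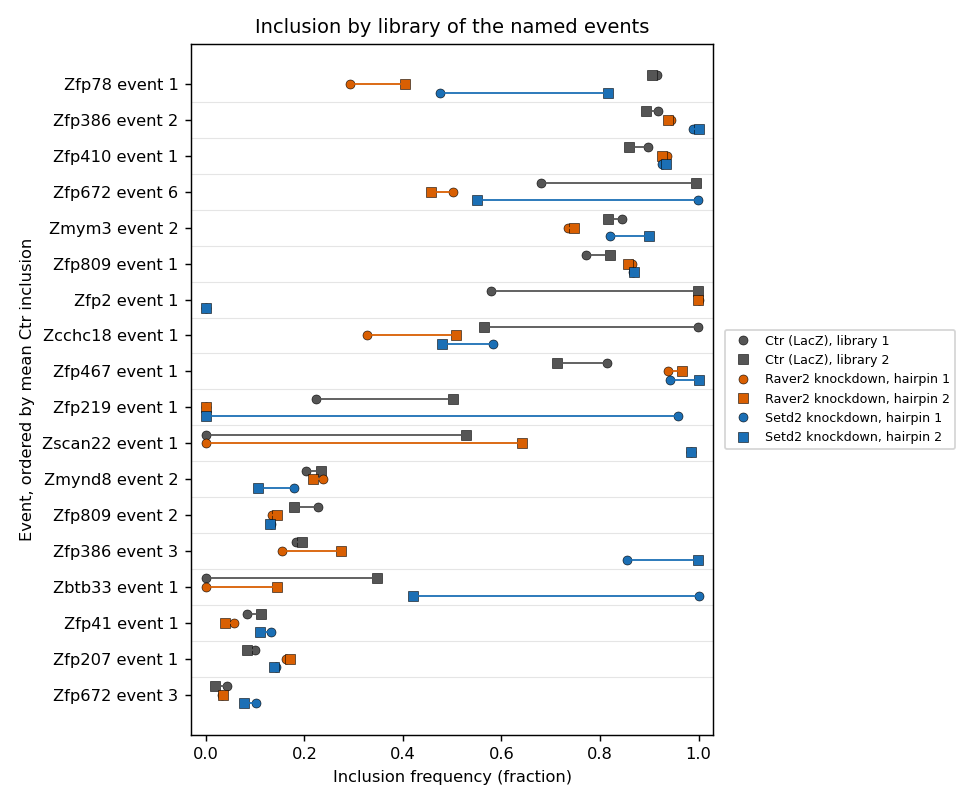
Inclusion frequency (x axis) of the 18 events named by the rule (rows, by Ctr mean) in each library, with circles and squares for the 2 libraries of a group and a line joining them. Zfp386 event 3 has its Setd2 knockdown libraries at 0.854 and above 0.999 and the other 4 at 0.275 or less, and Zfp78 event 1 has both Ctr libraries to the right of all others.

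Several Zfp genes showed smaller differences of the same sign in both knockdowns, measured against the same Ctr libraries. Zfp467, a regulator of fat and bone cell fate in marrow stroma, was at 0.814 and 0.713 in Ctr, 0.938 and 0.967 in the Raver2 knockdown, and 0.943 and above 0.999 in the Setd2 knockdown. Every knockdown library lay above both Ctr libraries, with differences of 0.188 for Raver2 (limma adjusted p = 0.242) and 0.208 for Setd2 (limma adjusted p = 0.200). Zfp809, a KRAB protein that silences murine leukaemia viruses and related endogenous retroviruses, had its event 1 at 0.772 and 0.821 in Ctr. The same event was at 0.865 and 0.856 in the Raver2 knockdown and at 0.867 and 0.870 in the Setd2 knockdown. Its differences were 0.0639 (limma adjusted p = 0.369) and 0.0720 (limma adjusted p = 0.30), and both were called without Ctr replicate 2, the higher of the Ctr libraries being the one left out. Events 2 and 3 of the gene are the complement of event 1 and add nothing to it.

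Zfp410, the activator of the chromatin remodeller gene Chd4, was at 0.897 and 0.860 in Ctr for event 1. The 4 knockdown libraries were close together at 0.926 to 0.936, above both Ctr values. The differences were 0.0521 (limma adjusted p = 0.340) and 0.0516 (limma adjusted p = 0.336). Its event 2 was at 0.00829 to 0.0155 in all libraries. Zfp384 event 1 was at 0.646 and 0.639 in Ctr, 0.546 and 0.575 in the Raver2 knockdown, and 0.528 and 0.510 in the Setd2 knockdown. The groups were apart in that order, with differences from Ctr of -0.0819 (limma adjusted p = 0.531) and -0.123 (limma adjusted p = 0.324). Zfp12 event 2 stood at 0.160 and 0.0569 in Ctr, 0.232 and 0.195 in the Raver2 knockdown, and 0.235 and 0.276 in the Setd2 knockdown.

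A few events separated a single knockdown at low levels. Zfp41 event 1 was at 0.0826 and 0.111 in Ctr, 0.0561 and 0.0379 in the Raver2 knockdown, and 0.133 and 0.110 in the Setd2 knockdown. The Raver2 libraries were lowest, while the other groups overlapped, and the Raver2 mean differed from the Setd2 mean by -0.0746 (limma adjusted p = 0.433). Zfp672 event 3 was at 0.0430 and 0.0190 in Ctr, 0.0326 and 0.0337 in the Raver2 knockdown, and 0.103 and 0.0779 in the Setd2 knockdown. There the Setd2 libraries were highest, 0.0593 above Ctr in the mean (limma adjusted p = 0.202).

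The largest differences in size were mostly in events whose libraries disagreed within a group. Zfp672 event 6 was at 0.680 and 0.996 in Ctr, 0.501 and 0.457 in the Raver2 knockdown, and 0.998 and 0.550 in the Setd2 knockdown, with a Raver2 difference of -0.359 (limma adjusted p = 0.682). Zfp219 was at 0.223 and 0.501 in Ctr, below 0.001 in both Raver2 libraries, and at 0.958 and below 0.001 in the Setd2 libraries. Its Raver2 difference was -0.362 (limma adjusted p = 0.792), and the Setd2 hairpins spanned nearly the whole scale.

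In the BTB family, 10 events of 7 genes were matched and none had an unadjusted p under 0.05, a level met by 12%, 11.6% and 6.12% of all events in the 3 comparisons. Zbtb44 was at 0.838 and 0.889 in Ctr, 0.844 and 0.888 in the Raver2 knockdown, and 0.899 and 0.869 in the Setd2 knockdown, so that its groups overlapped. Zbtb21 was at 0.615 and 0.684 in Ctr, 0.568 and 0.417 in the Raver2 knockdown, and 0.558 and 0.619 in the Setd2 knockdown. Zbtb33, which encodes the methyl-DNA binding protein Kaiso, was below 0.001 and at 0.348 in Ctr, below 0.001 and at 0.144 in the Raver2 knockdown, and above 0.999 and at 0.421 in the Setd2 knockdown. Its Setd2 libraries were the 2 highest, by a mean of 0.537 ± 0.256 over Ctr (SE; limma adjusted p = 0.578), with an interval from -0.195 to 1.27. Zbtb34 spanned 0.103 to 0.677 with all groups overlapping. Zfx, the X-linked activator with 13 C2H2 patterns, had 1 event at 0.561 to 0.692 over all libraries.

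Wide gaps between libraries of a group were found in 2 of the 4 Zscan genes, most of them in Zscan22. Of 16 Zscan events in 4 genes, 11 differed by more than 0.1 between the Raver2 hairpins, 8 between the Ctr libraries and 6 between the Setd2 hairpins. Zscan22 supplied 9, 7 and 5 of these, and Zscan21 the rest. Zscan10 and Zscan29 had none, with gaps of at most 0.000283 and 0.0328. Zscan22 event 1 was below 0.001 and at 0.527 in Ctr, below 0.001 and at 0.642 in the Raver2 knockdown, and at 0.985 and 0.986 in the Setd2 knockdown. The Setd2 libraries were close together and above all others, yet the spread elsewhere left a difference from Ctr of 0.722 ± 0.307 (SE; limma adjusted p = 0.528). In the family, 3 events were above 0.99 in every library. Zscan29 event 1 was low and steady, from 0.0750 to 0.122.

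Of the related Zkscan genes, Zkscan17 event 2 stayed at 0.771 to 0.830 in all libraries. Zkscan3, a repressor of autophagy genes, had its event 1 at 0.507 and 0.503 in Ctr, 0.580 and 0.713 in the Raver2 knockdown, and 0.180 and 0.489 in the Setd2 knockdown. The knockdowns lay on opposite sides of Ctr, but their difference of 0.313 was not called (limma adjusted p = 0.940). Zfp446 event 1 was ordered in the same way, at 0.458 and 0.452 in Ctr, 0.496 and 0.545 in the Raver2 knockdown, and 0.439 and 0.442 in the Setd2 knockdown. Such an order, with both knockdowns clear of Ctr on opposite sides, was seen in 4 member events (2.72%) and in 100 of all events (2.15%). The members were Zfp446 event 1, Zfp2 event 1, where all Raver2 libraries and the higher Ctr library are above 0.999, and both complementary events of Zkscan3.

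The CCCH genes, most of them RNA-binding, had 6 events in 4 genes, and 5 of the 6 stayed within 0.1 over all 6 libraries. Zc3h14, a poly(A)-binding protein, had its event 1 at 0.764 and 0.700 in Ctr, 0.744 and 0.782 in the Raver2 knockdown, and 0.781 and 0.761 in the Setd2 knockdown. Its events 2 and 3 were equal and lay at 0.942 to 0.955. Zc3h7a was at 0.704 and 0.660 in Ctr, and all 4 knockdown libraries lay below, at 0.625 to 0.645, with differences of -0.0551 (limma adjusted p = 0.627) and -0.0385 (limma adjusted p = 0.699). Zc3h11a, a factor in mRNA export, was at 0.923 and 0.677 in Ctr, a range that holds all of its knockdown values. In the CCHC family, Zcchc2 was at 0.303 and 0.295 in Ctr, 0.366 and 0.421 in the Raver2 knockdown, and 0.347 and 0.368 in the Setd2 knockdown. Both knockdowns were above Ctr, by 0.0949 (limma adjusted p = 0.605) and 0.0588 (limma adjusted p = 0.705). Zcchc18 was above 0.999 and at 0.564 in Ctr, 0.327 and 0.507 in the Raver2 knockdown, and 0.584 and 0.479 in the Setd2 knockdown.

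Among the chromatin families, Zmynd11 was at 0.767 and 0.791 in Ctr, 0.748 and 0.709 in the Raver2 knockdown, and 0.697 and 0.716 in the Setd2 knockdown. Both knockdowns were below Ctr, by differences of -0.0508 (limma adjusted p = 0.566) and -0.0729 (limma adjusted p = 0.370). Zmynd8 event 2 was at 0.202 and 0.234 in Ctr, 0.237 and 0.217 in the Raver2 knockdown, and 0.179 and 0.106 in the Setd2 knockdown. The Setd2 libraries were lowest, 0.0852 below the Raver2 mean (limma adjusted p = 0.896).

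Zmym3, a subunit of histone demethylase complexes with Kdm1a, had its event 2 at 0.846 and 0.817 in Ctr, 0.734 and 0.747 in the Raver2 knockdown, and 0.821 and 0.899 in the Setd2 knockdown. The Raver2 libraries were below all others, by -0.0903 from Ctr (limma adjusted p = 0.419) and by -0.119 from the Setd2 knockdown (limma adjusted p = 0.611). Zmym3 event 3 had the Raver2 libraries lowest as well, at 0.546 and 0.571, with 0.698 and 0.668 in Ctr and 0.624 and 0.803 in the Setd2 knockdown. Zmym6 event 3 was at 0.742 and 0.818 in Ctr, and its knockdown libraries lay at 0.846 to 0.931. Zmiz2, a coactivator with a SUMO ligase-like MIZ finger, was at 0.833 and 0.748 in Ctr and at 0.713 to 0.763 in the knockdowns.

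The palmitoyltransferases had 3 events in 3 genes. Zdhhc24 was at 0.878 and 0.856 in Ctr, 0.777 and 0.704 in the Raver2 knockdown, and 0.668 and 0.978 in the Setd2 knockdown, so the Raver2 libraries were below Ctr and the Setd2 hairpins lay on both sides of it. The Raver2 difference was -0.127 (limma adjusted p = 0.762). Zdhhc6 was low throughout, at 0.0395 to 0.0897.

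Lists of genes that work with these families were read from the same fit. Of 20 genes in KRAB repression, 6 had 8 events, among them Setdb1 and Cbx5, and none was called in any comparison, with 1, 1 and 0 events at an unadjusted p under 0.05. Of 12 corepressors of BTB factors, 7 had 21 events. Event 4 of Hdac7, a histone deacetylase prominent in thymocytes, rose in the Setd2 knockdown, from 0.760 and 0.775 in Ctr to 0.909 in both libraries (difference 0.142 ± 0.0153 SE, limma adjusted p = 0.0493), with 0.849 and 0.884 in the Raver2 knockdown. That call rests on the setting: it was lost under 13 of 14 alternatives, among them both other scales and the omission of any 1 library, with adjusted p up to 0.169. No other event of that list was called in any comparison. Of 30 genes in RNA decay and 3′ end processing, 10 had 18 events and none was called, with 2, 2 and 0 at an unadjusted p under 0.05. Of 10 palmitoylation partners, 1 had 1 event, which was not called.

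Other C2H2 genes outside the naming rule gave 9 genes and 13 events. Event 1 of Egr3, an early response factor in T cells and elsewhere, rose in the Setd2 knockdown. It was below 0.001 in both Ctr and both Raver2 libraries and at 0.116 and 0.0939 in the Setd2 knockdown, a difference from Ctr of 0.105 ± 0.00801 (SE; limma adjusted p = 0.0253). Against the Setd2 knockdown the Raver2 knockdown was lower by the same amount (limma adjusted p = 0.0456). The first call was lost without any 1 of the Ctr or Raver2 knockdown libraries and with only the 4 libraries compared, 5 of 14 alternatives, with adjusted p up to 0.0981. The second was lost under 8 of 15, the same omissions and the replicate block among them, with adjusted p up to 0.157. The other 12 events of that list were not called in any comparison.

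Among the marker lists, the mTEC genes with events were 3 of 12, with 15 events. Aire, the regulator of tissue antigen display in mTECs, had 3 events past the test in each knockdown against Ctr, 2 higher and 1 lower. Its event 2, for example, was below 0.001 in Ctr, 0.190 and 0.168 in the Raver2 knockdown, and 0.118 and 0.110 in the Setd2 knockdown. Events 1 and 3 were near complements in every library, at 0.108 and 0.892 with Raver2 sh1 for instance, so they may not be separate findings. In the Raver2 knockdown events 2 and 3 were called under all 13 alternatives run for them, and event 1 was lost under 3 of 13, without either Ctr library and without Raver2 replicate 2. In the Setd2 knockdown the calls were less firm. Event 1 was lost under 11 of 13 (adjusted p up to 0.145), the omission of any 1 library among them. Event 2 was lost under 5 of 13, among them the omission of either Ctr library or either Setd2 library. Event 3 was lost under 4 of 13, among them the omission of either Raver2 library. Whether this bears on the zinc finger events was not tested. The fibroblast list (2 events) and the leukocyte list (3 events) had none called, with 1, 1 and 0 and with 0, 0 and 0 events at an unadjusted p under 0.05.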

How the data were processed

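Inclusion of splicing events was measured in 6 mTEC libraries, 2 per group. Per the labels' protocols, total RNA was amplified with SMART-seq v4 and made into libraries with Nextera XT. The authors deposited 1 fraction between 0 and 1 per event and library. The submitters' processing notes name Trimmomatic 0.39, TopHat2, Cufflinks and mm10; the way inclusion was estimated, and any coverage minimum, is not given in the sources used here. Without counts the depth is unknown and counting error cannot be stated.

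Events were matched by gene and row order among genes listed in all libraries with the same number of rows: 2685 genes, with 213 left out. limma 3.58.1 in R 4.3.3 fitted the fractions (variance trend, Benjamini-Hochberg over 4658 events). The fit was run on simulated data whose noise was even and narrower than the spread of many member events. That run does not show how the test performs on spreads like those seen here. Tables were handled with Python 3.11.15 and pandas 2.3.3. Exons and coding sequences came from the GENCODE M21 annotation by symbol and locate genes, not events.

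The rule named, per comparison, every member event past the threshold, the 8 with the smallest unadjusted p and the 4 with the largest difference whose groups do not overlap. Others were described by family, up to 6 per family, by smallest spread. Zfp12, Zfp473, Zfp879 and the other genes beyond these were chosen after their values were seen. The members, the lists (KRAB partners, BTB corepressors, RNA decay, palmitoylation, other C2H2 genes, cell type markers) and the tests were chosen with earlier results of these data known. Alternatives changed the scale, variance model, libraries in the fit, filters, repeated events, size of change and replicates left out.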

Additional observations from a re-analysis of the deposited data

How the results depend on the processing

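With 2 libraries per group, unknown depth limits every value: an extreme fraction may rest on few reads. The count of member events called was 0 in all comparisons. In Raver2 knockdown against Ctr it became 1 without a variance trend (Zfp207 event 1), and 0 to 4 when a library was left out: 1 without Ctr replicate 1 (Zfp207 event 1), 1 without Ctr replicate 2 (Zfp809 event 1) and 4 without Raver2 knockdown replicate 2 (Zscan21 events 2 and 4, Zscan22 event 8, Zfp14 event 1). In Setd2 knockdown against Ctr it became 1 without a variance trend and 1 with a robust variance model (both Zfp386 event 3). Leaving out a library gave 0 to 5: 2 without Ctr replicate 1 (Zfp2 event 1, Zfp386 event 2), 5 without Ctr replicate 2 (these and 3 events of Zfp809) and 2 without Setd2 knockdown replicate 2 (Zfp428 event 1, Zfp473 event 1). Between the knockdowns it became 1 (Zfp2 event 1) with only the 4 libraries compared, and 0 to 4 when a library was left out. Those were 1 without either Ctr library, 4 without Raver2 knockdown replicate 2 and 2 without Setd2 knockdown replicate 2. Where a knockdown library is left out, the lone one is assumed to vary like the other groups. The kept and the omitted Raver2 library stood at 0.999 and below 0.001 in Zscan21 event 4. They stood at 0.400 and 0.896 in Zscan22 event 8, and at 0.348 and below 0.001 in Zfp14 event 1. The kept and the omitted Setd2 library stood at 0.190 and below 0.001 in Zfp428 event 1. In Zfp473 event 1 they stood below 0.001 and above 0.999. Such calls rest on 1 library that its partner did not match. The cause was not tested. The settings not mentioned called 0 member events. With hairpin number as a replicate block, 0 member events and 0 of all events were called between the knockdowns. Without it 34 of all events were called. Deviations of same-numbered hairpins correlated at 0.0146 over all events and at -0.0745 over the member events. The block also leaves less from which to estimate the spread, and whether same-numbered libraries share a batch was not tested. Over all events, the 113 called in Raver2 knockdown against Ctr became 75 with only the 4 libraries compared, 10 of 2000 without events near 0 or 1, 38 of 1677 in genes with 1 event, and 74 to 291 without a library. The 104 of Setd2 knockdown against Ctr became 0, 6, 37 and 48 to 279. The 34 between the knockdowns became 46, 0, 12 and 46 to 119. Of 439 values of the named events under alternatives, 425 kept their direction uncalled, 14 were called in the same direction and 0 turned. The alternatives for Hdac7, Egr3 and Aire were added after the data were seen.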
